A study of Mus musculus with 20 samples.

Results

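The 10 genes P2ry12, P2ry13, Tmem119, Cx3cr1, Hexim1, Csf1r, Ctss, Siglech, Selplg and Olfml3, named as markers of resting (homeostatic) microglia, were read by symbol from a table of 24528 genes in brain tissue of aged mice, and all 10 had a row. Total RNA depleted of ribosomal RNA had been sequenced from homogenised neocortex and hippocampus of mice 18 months old. TDP-43KQ/KQ mice carry the acetylation-mimic substitution of lysine by glutamine in the endogenous Tardbp gene on both alleles, introduced with CRISPR-Cas9 together with silent changes and bred from a founder line kept as heterozygotes on C57BL/6J, and TDP-43wt mice carry the unedited gene on that background. There were 6 TDP-43KQ/KQ (3 female, 3 male) and 5 TDP-43wt (3 female, 2 male) libraries of neocortex, and 5 TDP-43KQ/KQ (3 female, 2 male) and 4 TDP-43wt (3 female, 1 male) libraries of hippocampus. No cells were sorted, so for the microglial genes below fewer microglia and less RNA per microglial cell cannot be told apart. By staining, the paper observed no microgliosis in neocortex or hippocampus, from the intensity and area of the protein Iba1. That is not a count of cells or a measure of these RNAs.

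Microglia are the resident macrophages of the brain. In the undisturbed state they survey the tissue with moving processes and carry a set of receptors that respond to signals of neurons and other glia, and much of this set is turned down when microglia take up a reactive state. P2ry12 and P2ry13 are purinergic receptors for ADP, of which P2ry12 steers processes towards injured cells. Cx3cr1 is the receptor of the neuronal chemokine fractalkine, and Csf1r is the receptor of Csf1 and Il34 on which microglia depend for survival. Siglech is a sialic acid-binding lectin, Selplg encodes the selectin ligand PSGL-1, and Tmem119 is a transmembrane protein widely used to tell microglia from blood-derived macrophages. Ctss is a lysosomal cysteine protease that can be secreted, and Olfml3 is a secreted olfactomedin-like protein. Hexim1 is of another kind, because it is a broadly expressed nuclear protein that, with the 7SK RNA, holds the transcription elongation factor P-TEFb inactive.

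P2ry13 (chr3:59207892-59210882, minus strand) and P2ry12 (chr3:59216271-59262985, minus strand) are neighbours 5388 bases apart in assembly GRCm38, and both lie inside Med12l on the plus strand. The strand setting of the read assignment was not given in the sources used here. Med12l itself had a log2 change of 0.15 ± 0.10 (SE) in TDP-43KQ/KQ against TDP-43wt neocortex and 0.051 ± 0.11 in hippocampus (limma adjusted p 0.510 and 0.863). Tmem119 and Selplg are neighbours on chromosome 5, 17401 bases apart, while Ctss and Olfml3 lie elsewhere on chromosome 3, Siglech on chromosome 7, Cx3cr1 on chromosome 9 and Hexim1 on chromosome 11.

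The 250 bases upstream of the RefSeq start are shown for P2ry12 (chr3:59262986-59263235, minus strand), P2ry13 (chr3:59210883-59211132, minus strand), Cx3cr1 (chr9:120068297-120068546, minus strand) and Ctss (chr3:95526536-95526785, plus strand), because the results turn on Cx3cr1, Ctss and P2ry13 and on how P2ry13 stood to its neighbour P2ry12. Capitals mark GAGGAA, a core that the myeloid factor PU.1 can bind, searched on both strands.
P2ry12 promoter: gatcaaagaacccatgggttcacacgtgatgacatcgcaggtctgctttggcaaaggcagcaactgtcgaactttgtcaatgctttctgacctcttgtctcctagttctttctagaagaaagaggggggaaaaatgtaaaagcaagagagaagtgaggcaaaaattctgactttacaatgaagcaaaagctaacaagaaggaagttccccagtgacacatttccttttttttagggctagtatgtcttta
P2ry13 promoter: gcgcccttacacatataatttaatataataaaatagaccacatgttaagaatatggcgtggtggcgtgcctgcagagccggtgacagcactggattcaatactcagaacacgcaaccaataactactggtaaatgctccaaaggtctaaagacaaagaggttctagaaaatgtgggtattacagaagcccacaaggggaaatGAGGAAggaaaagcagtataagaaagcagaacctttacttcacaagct
Cx3cr1 promoter: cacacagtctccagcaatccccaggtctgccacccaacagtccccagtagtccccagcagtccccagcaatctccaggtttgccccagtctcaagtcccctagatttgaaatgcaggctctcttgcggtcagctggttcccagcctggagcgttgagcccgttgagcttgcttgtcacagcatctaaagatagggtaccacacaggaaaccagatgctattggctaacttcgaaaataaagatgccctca
Ctss promoter: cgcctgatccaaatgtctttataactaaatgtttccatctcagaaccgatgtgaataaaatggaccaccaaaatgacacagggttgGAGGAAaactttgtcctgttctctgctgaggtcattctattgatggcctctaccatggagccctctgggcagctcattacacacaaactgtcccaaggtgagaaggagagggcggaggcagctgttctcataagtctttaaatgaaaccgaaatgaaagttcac
GAGGAA occurred 48 bases before the start of P2ry13 and 164 bases before that of Ctss, and these letters were not in the windows of P2ry12 and Cx3cr1. RefSeq windows (GRCm38.p6) were matched for 7 of the 10 genes, of which 2 held the core, as did 23.3% of 32851 windows of the same length. TATAAA was in 1 of the 7, that of Ctss, and in 12.4% of all windows.

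The deposited values are log2-like, with sex and litter removed by the authors, and every gene averaged 0 over the TDP-43KQ/KQ neocortex libraries, so values are differences from that mean and give no expression level. The removal left some values without a measurement of their own: TDP-43wt neocortex male 1, the one library of its litter, sat exactly at its group mean, and the deviations of TDP-43KQ/KQ female 2 from the group means were equal and opposite in the 2 regions. Tardbp was higher in TDP-43KQ/KQ neocortex (log2 change 0.99 ± 0.069, limma adjusted p 0.00192) and had a log2 change of 0.86 ± 0.13 in hippocampus (adjusted p 0.204). All 6 hippocampal identity genes were higher in hippocampus than in neocortex in both genotypes (median log2 change 2.53 in TDP-43KQ/KQ and 3.01 in TDP-43wt), as the tissue labels say. TDP-43wt female 2 stood apart in both regions: it had the highest TDP-43wt value of 7 of the 9 microglial genes (all but Hexim1) in neocortex and of 9 of 9 in hippocampus. Libraries of a group shared litters in part, and p-values measure the spread between these libraries.

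The first question was whether the resting-microglia genes differ between TDP-43KQ/KQ and TDP-43wt neocortex. All 10 had a log2 change below 0, led by the fractalkine receptor Cx3cr1 and the protease Ctss, at -20.3% and -19.6%, and none passed the test after adjustment over all genes. By the limma fit with genotype, sex and litter, 0 of 10 members were called at an adjusted p under 0.05, where 0.0382% of 18329 genes (7) were called. With 4 residual degrees of freedom and so few calls over all genes, the lack of calls is no result about the members. The paper, by DESeq2, reported far more differentially expressed genes in this region. At an unadjusted p under 0.05, 5 of 10 were lower, against 5.97% of all genes (13.7% in either direction), and 51.5% of all genes had a change below 0. The median change of the members was -0.14, and that of all genes -0.0037.

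Cx3cr1 had values of -0.18, 0.076 and -0.026 in TDP-43KQ/KQ females 1 to 3 and 0.12, 0.086 and -0.072 in males 1 to 3, against 0.30, 0.40 and 0.25 in TDP-43wt females 1 to 3 and 0.30 and 0.24 in males 1 and 2. The highest mutant library lay below the lowest control library. Its log2 change was -0.33 ± 0.076 (SE; 95% interval -0.50 to -0.16; the percentage above is the same change on the linear scale), with an unadjusted p of 0.00180 and an adjusted p of 0.183 in limma. Ctss had values of -0.12, 0.070 and 0.021 in TDP-43KQ/KQ females and 0.085, 0.030 and -0.090 in males, against 0.11, 0.41 and 0.34 in TDP-43wt females and 0.29 and 0.29 in males. Here too the groups did not overlap, though TDP-43wt female 1 lay close to the highest mutant library. Its log2 change was -0.32 ± 0.073 (limma adjusted p 0.183).

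The ADP receptor P2ry13 was the remaining gene with no overlap in neocortex. It had values of -0.16, -0.060 and 0.048 in TDP-43KQ/KQ females and 0.16, 0.12 and -0.10 in males, against 0.18, 0.46 and 0.24 in TDP-43wt females and 0.27 and 0.22 in males. Its log2 change was -0.27 ± 0.092 (limma adjusted p 0.292). With 3 of 10 members, the count of genes whose mutant libraries all lay below every control library compares with 4.29% of all genes.

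Olfml3 and Siglech had an unadjusted p under 0.05 but overlapping groups. Olfml3 ranged from -0.16 to 0.13 (median 0.042) in TDP-43KQ/KQ and from 0.073 to 0.25 (median 0.17) in TDP-43wt neocortex, a log2 change of -0.20 ± 0.074 (adjusted p 0.313). The lectin Siglech ranged from -0.091 to 0.079 in TDP-43KQ/KQ and from 0.028 to 0.25 in TDP-43wt, a change of -0.16 ± 0.067 (adjusted p 0.350). The other surface genes were closer to 0. The log2 change was -0.11 ± 0.11 for P2ry12, -0.10 ± 0.049 for Selplg, -0.077 ± 0.051 for Csf1r and -0.033 ± 0.068 for Tmem119. Hexim1 had the smallest difference, with -0.027 ± 0.057, and ranged from -0.086 to 0.071 in TDP-43KQ/KQ and from -0.016 to 0.11 in TDP-43wt.

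**Figure D1:**
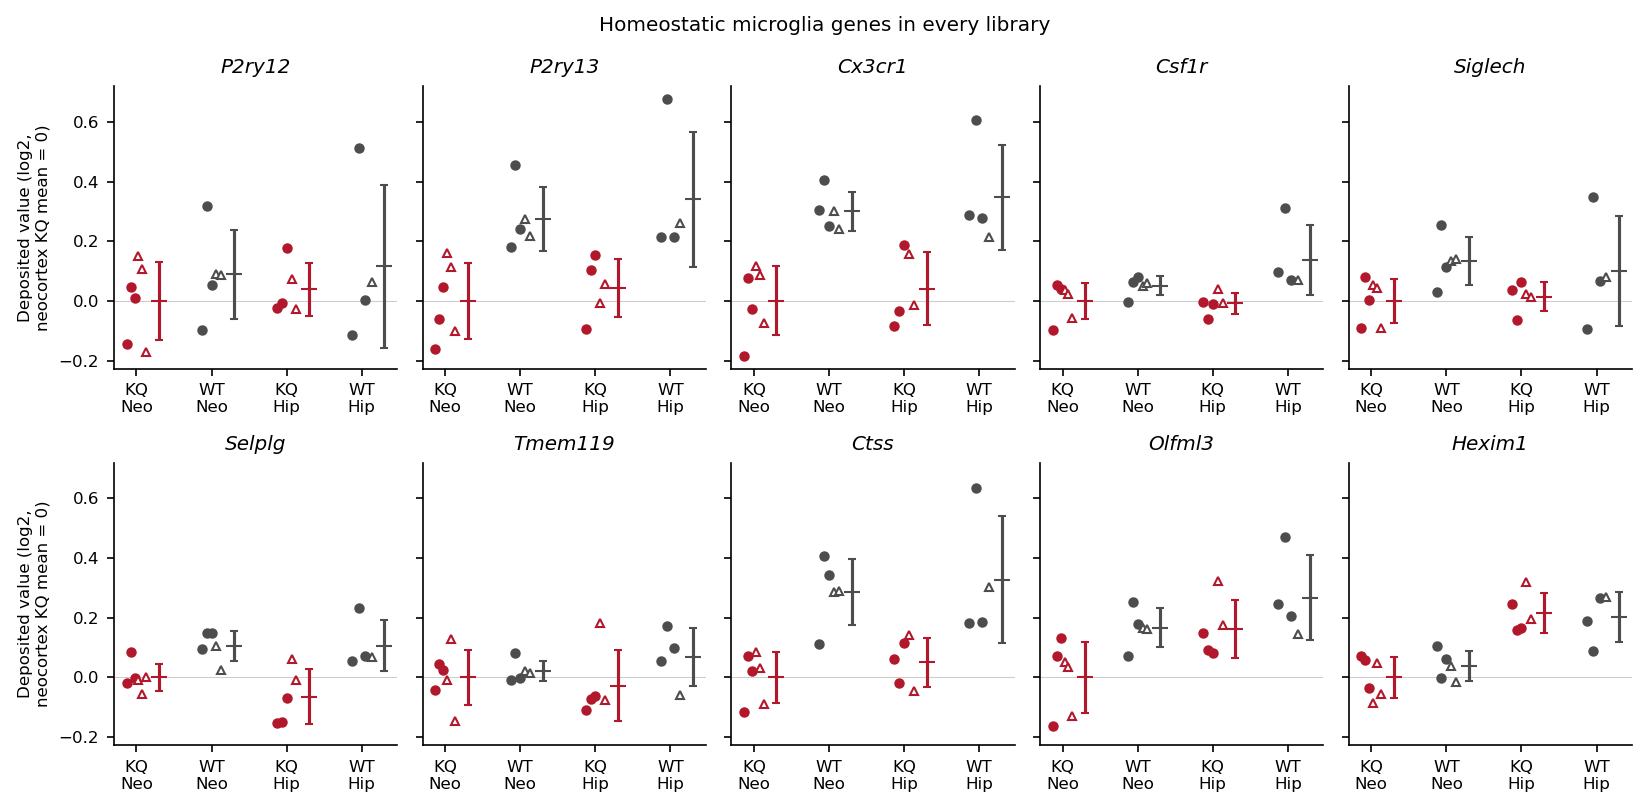
Deposited value (log2, y axis; the mean of the TDP-43KQ/KQ neocortex libraries is 0 for each gene) of the 10 genes in every library, for TDP-43KQ/KQ (KQ, red) and TDP-43wt (WT, grey) in neocortex (Neo) and hippocampus (Hip). Filled circles are females, open triangles males, and the bar beside each group is the mean with its SD. For Cx3cr1, Ctss and P2ry13 no KQ point reaches a WT point of the same region, and the top WT point of hippocampus is female 2 in 9 genes.

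Whether these neocortical differences passed a test depended on the terms of the fit. With sex but no litter term, and with litter as a random effect, 3 members were called lower in neocortex, P2ry13, Cx3cr1 and Ctss, but those fits called 10.6% and 13.2% of all genes. In a fit of both regions together 0 of 10 were called (0.224% of 17863 genes), with 3 at an unadjusted p under 0.05. Leaving out each library in turn from the neocortex fit also gave 0 called, and 2 to 5 members at an unadjusted p under 0.05. TDP-43KQ/KQ female 2 and TDP-43wt male 1 did not enter the genotype estimate of that fit, so leaving them out could not change it. The count of 2 came without TDP-43KQ/KQ female 1, when Cx3cr1, Ctss and P2ry13 had -0.21, -0.28 and -0.15, and the count was 3 without TDP-43wt male 2.

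In hippocampus the same 3 genes had the largest changes, with wider errors. P2ry13, Cx3cr1 and Ctss had log2 changes between -0.39 and -0.30 in TDP-43KQ/KQ against TDP-43wt, and 0 of 10 members passed the adjusted test. Over all genes 0 of 18310 were called in this comparison (0%), and the lowest limma adjusted p of any gene was 0.152 (Sema5b). The lack of calls is therefore no result about the members. The paper, by DESeq2, reported differentially expressed genes in this region, Sema5b among them. At an unadjusted p under 0.05, 3 of 10 members were lower, against 5.67% of all genes, with 12.1% past that level in either direction. A change below 0 was seen in 9 of 10 members and in 51.7% of all genes, and the median was -0.13 over the members and -0.0047 over all genes.

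P2ry13 had values of -0.093, 0.10 and 0.15 in TDP-43KQ/KQ females 1 to 3 and -0.0061 and 0.056 in males 1 and 2, against 0.21, 0.68 and 0.21 in TDP-43wt females 1 to 3 and 0.26 in male 1. All mutant libraries were below all control libraries, and TDP-43wt female 2 was far above the rest. The log2 change was -0.39 ± 0.13 (95% interval -0.70 to -0.073; -23.5%), with an unadjusted p of 0.0221 and an adjusted p of 0.338 in limma. Cx3cr1 had values of -0.085, -0.035 and 0.19 in TDP-43KQ/KQ females and 0.16 and -0.015 in males, against 0.29, 0.61 and 0.28 in TDP-43wt females and 0.22 in the male, a change of -0.34 ± 0.12 (-20.9%; adjusted p 0.361). Ctss had values of 0.061, -0.019 and 0.11 in TDP-43KQ/KQ females and 0.14 and -0.044 in males, against 0.18, 0.64 and 0.19 in TDP-43wt females and 0.30 in the male, a change of -0.30 ± 0.13 (-18.9%; adjusted p 0.405).

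Csf1r (chr18:61105572-61131139), the receptor needed for survival, was the fourth gene without overlap in hippocampus. It ranged from -0.061 to 0.041 in TDP-43KQ/KQ and from 0.070 to 0.31 in TDP-43wt, a log2 change of -0.13 ± 0.084 (limma adjusted p 0.546). Those 4 of 10 members compare with 5.35% of all genes in which every mutant library was below every control library, and 3 members against 1.21% of genes held this order in both regions, which share litters and probably female mice.

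Of the other receptors and surface proteins, Selplg had a log2 change of -0.17 ± 0.088, P2ry12 of -0.13 ± 0.16, Siglech of -0.078 ± 0.12 and Tmem119 of -0.056 ± 0.11 in hippocampus. The secreted Olfml3 had -0.054 ± 0.10. P2ry12 had values of -0.024, -0.0079 and 0.18 in TDP-43KQ/KQ females and 0.074 and -0.026 in males, against -0.11, 0.51 and 0.0024 in TDP-43wt females and 0.063 in the male, so that its control spread was carried by female 2. Hexim1 was the one member above 0, with values of 0.24, 0.16 and 0.17 in TDP-43KQ/KQ females and 0.32 and 0.19 in males, against 0.19, 0.089 and 0.27 in TDP-43wt females and 0.27 in the male. Its groups overlapped, with a log2 change of 0.047 ± 0.074 (limma adjusted p 0.815).

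Without TDP-43wt female 2 of hippocampus the members' median change in that region was -0.041, and 2 of 10 had an unadjusted p under 0.05. P2ry13, Cx3cr1 and Ctss had -0.27, -0.24 and -0.20, and P2ry12, Siglech and Olfml3 were above 0 (0.016, 0.020 and 0.016). With TDP-43KQ/KQ female 1 left out instead, 0 of 10 had an unadjusted p under 0.05 and the median was -0.048. P2ry13, Cx3cr1 and Ctss then had -0.24, -0.14 and -0.25, and Tmem119 and Olfml3 were above 0 (0.11 and 0.10). With TDP-43KQ/KQ male 2 left out, 1 of 10 had an unadjusted p under 0.05.

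**Figure D2:**
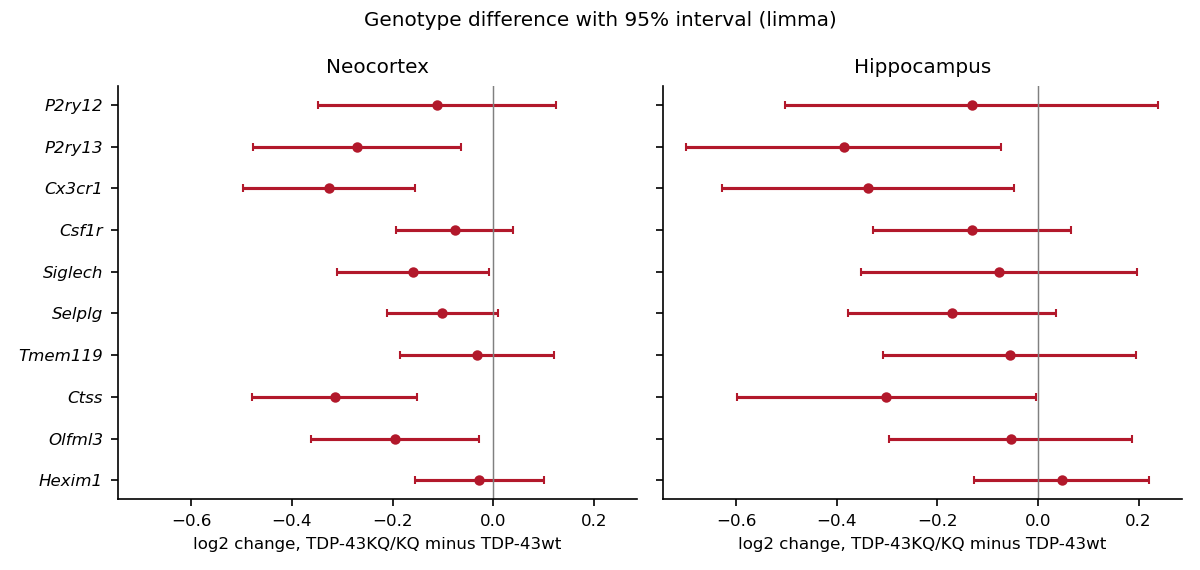
Log2 change of the 10 genes in TDP-43KQ/KQ minus TDP-43wt (x axis) in neocortex (left) and hippocampus (right), with the 95% interval of the limma fit with genotype, sex and litter. In neocortex the intervals of Cx3cr1, Ctss, P2ry13, Olfml3 and Siglech lie below 0, and in hippocampus those of P2ry13, Cx3cr1 and Ctss do; none passed the adjusted test.

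The genotype difference was not shown to differ between the regions for any member. In the fit of all 20 libraries, 0 of 10 were called for the difference of the genotype effects (0% of 17863 genes), and 0 of 10 had an unadjusted p under 0.05, against 5.83% of all genes. The difference, hippocampus minus neocortex, was -0.0054 for Cx3cr1 (95% interval -0.27 to 0.26), 0.011 for Ctss (-0.26 to 0.28) and -0.023 for P2ry13 (-0.33 to 0.28), and intervals of this width cannot exclude a difference as large as the changes themselves.

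Between hippocampus and neocortex of the same genotype the microglial receptors differed little, and Hexim1 was the only member called. It was higher in TDP-43KQ/KQ hippocampus than in TDP-43KQ/KQ neocortex by 0.22 ± 0.051 on the log2 scale (limma adjusted p 0.00368), and in TDP-43wt by 0.17 ± 0.058 (adjusted p 0.0448). In both genotypes this is 1 of 10 members, where 35.4% of all genes were called in TDP-43KQ/KQ (17.2% higher in hippocampus) and 28.2% in TDP-43wt (13.5% higher). The lowest Hexim1 value in TDP-43KQ/KQ hippocampus, 0.16, was above the highest in TDP-43KQ/KQ neocortex, 0.071, while in TDP-43wt the lowest hippocampal value, 0.089, lay within the neocortical range of -0.016 to 0.11. Female libraries of both regions with the same genotype and number shared a litter, but the labels do not state that they came from the same mouse. For these 6 pairs, hippocampus minus neocortex was 0.17, 0.10 and 0.20 in TDP-43KQ/KQ and 0.083, 0.090 and 0.20 in TDP-43wt. The difference was above 0 in each pair, but a limma fit of these 6 differences gave adjusted p-values of 0.0501 and 0.0997. The TDP-43wt call was lost when 11 of the 20 libraries were left out in turn and when each library was centred on its median.

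Among the microglial genes, Olfml3 had the largest regional change in both genotypes, 0.16 ± 0.074 in TDP-43KQ/KQ and 0.10 ± 0.085 in TDP-43wt (limma adjusted p 0.103 and 0.408). The most negative was Selplg in TDP-43KQ/KQ, with hippocampal values of -0.15, -0.15 and -0.069 in females and 0.061 and -0.0075 in males, against neocortical values of -0.018, 0.086 and -0.0030 in females and -0.0083, -0.056 and 0.00046 in males. Those groups overlapped, with a change of -0.064 ± 0.052 (adjusted p 0.370). In TDP-43wt the most negative was Siglech, with -0.094, 0.35 and 0.065 in hippocampal females and 0.081 in the male, against 0.028, 0.25 and 0.11 in neocortical females and 0.13 and 0.14 in males, a change of -0.033 ± 0.081 (adjusted p 0.794). The other members lay between -0.028 and 0.051 in TDP-43KQ/KQ and between 0.0030 and 0.087 in TDP-43wt.

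Across the libraries of a region the 9 microglial genes moved together and Hexim1 did not. With values centred within genotype, the 36 pairs of the 9 genes had a median Pearson's r of 0.72 over the 11 neocortex libraries and 0.77 over the 9 hippocampus libraries, and the 9 pairs with Hexim1 had medians of -0.31 and -0.39. Hexim1 had r of -0.27 in neocortex and -0.40 in hippocampus with the mean of the other 9, a mean r above that of 28.0% of all genes. Of its pairs 0 passed the test in either region, and their medians were -0.051 and 0.11 without the 2 farthest libraries. The covariation was not particular to microglia (below), so these values do not tell whether a gene is a microglia marker. P2ry12 and Siglech were the closest pair in neocortex (r = 0.96, Spearman's rho = 0.94; exact within-genotype permutation p 0.000880, adjusted p 0.0264 over 90 pairs; r = 0.93 without the 2 libraries farthest from the median of P2ry12). P2ry12 and its neighbour P2ry13 had r = 0.90 and rho = 0.86 there (exact permutation p 0.000613, adjusted p 0.0264; r = 0.88 without the 2 farthest). In hippocampus the closest pair was P2ry12 with Ctss (r = 0.95, rho = 0.92; exact permutation p 0.00590, adjusted p 0.0428; r = 0.73 without the 2 farthest). Selplg was the exception in neocortex, where its r with the mean of the other microglial genes was 0.23, against 0.81 in hippocampus, a difference that was not tested.

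In neocortex 15 of the 36 pairs passed by r and 4 by rho, and in hippocampus 3 and 0 did. These counts rest on single libraries: leaving out each neocortex library in turn left 0 to 10 pairs past the test. In hippocampus the median r was 0.25 when the 2 farthest libraries were left out, and 0.33 without TDP-43wt female 2 alone. The values of TDP-43wt male 1 and of TDP-43KQ/KQ female 2 in neocortex, fixed in part by the litter removal, enter these correlations as points.

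**Figure D3:**
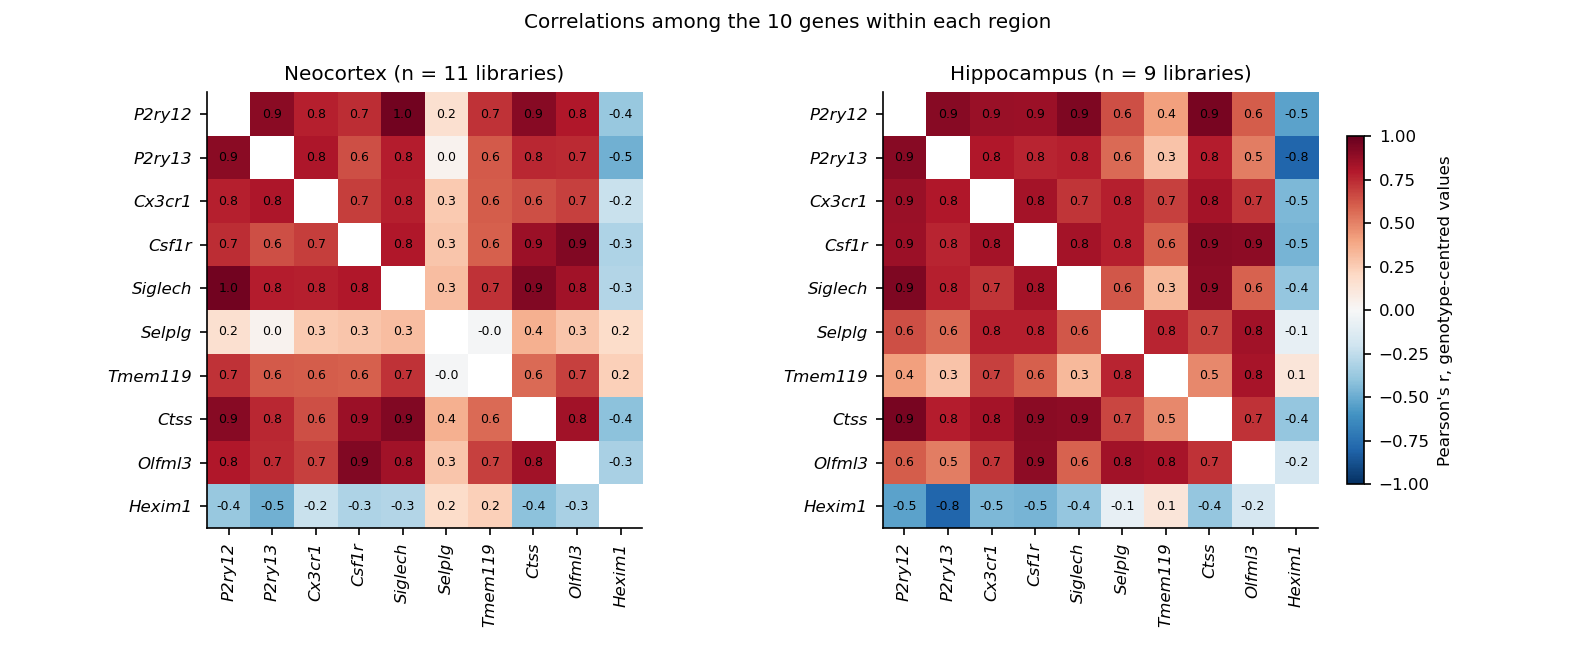
Pearson's r between each pair of the 10 genes over 11 neocortex and 9 hippocampus libraries, after centring on the mean of each genotype (colour and number in each cell, rounded to 1 decimal). The block of the first 9 genes is mostly red, with a pale Selplg row in neocortex, and the Hexim1 row is blue for 7 of the 9 genes in neocortex and 8 of 9 in hippocampus.

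The covariation was not particular to microglia. Of the genes in no list, the 10 with the highest mean r with the 9 genes were Prdx6, Morf4l1, Ywhaq, Tmem100, Ptges3, Cbx3, Snx5, Gdi2, Eef1a1 and Actr10, with mean r of 0.95 to 0.97. Several of these are widely expressed, among them the translation factor Eef1a1, the 14-3-3 protein Ywhaq and the heterochromatin protein Cbx3. For genotype, 10 of these 10 had a log2 change below 0 in each region, and 0 were called. Their median was -0.15 in neocortex (-0.054 at its closest to 0 with each library left out in turn) and -0.078 in hippocampus. The medians of the members were -0.14 and -0.13, so a lower value in neocortex was not particular to the members. Over all 17863 genes, 6.25% had r above 0.8 with the mean of the 9 in neocortex and 6.94% in hippocampus, and 7.80% and 7.61% had r below -0.8. The median r of the 8 astrocyte markers was 0.62 in neocortex and 0.84 in hippocampus, and that of 24 other microglia genes 0.76 and 0.82.

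A set of 7 long noncoding RNAs that stay in the nucleus, chosen after the values were seen, ran the other way. These 7 (Malat1, Meg3, Neat1, Miat, Snhg11, Kcnq1ot1 and Rian) had a median r of -0.89 with the mean of the 9 genes in neocortex and -0.86 in hippocampus. Because of that choice, these r values are no test of such RNAs as a class. Between library means of the 7 RNAs and the 9 genes r was -0.88 in neocortex (rho = -0.86; -0.77 without the 2 farthest libraries) and -0.88 in hippocampus (rho = -0.67; -0.13 without the 2 farthest), so that in hippocampus the relation rests on those libraries. The mean of the 7 RNAs ranged from -0.48 to 0.55 in TDP-43KQ/KQ and from -1.04 to -0.22 in TDP-43wt neocortex, and from 0.11 to 0.89 in TDP-43KQ/KQ and from -0.57 to 0.73 in TDP-43wt hippocampus. The r with the 9 genes was also graded by gene length, with a neocortex median of 0.17 over the 3461 genes with the shortest span in the genome and -0.23 over the 3460 with the longest, and in hippocampus of 0.14 and -0.11.

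With the mean of the 7 RNAs as a covariate in the fit of both regions, a fit added after the values were seen, the neocortex change of Cx3cr1 was -0.20 ± 0.078, that of Ctss -0.15 ± 0.059 and that of P2ry13 -0.15 ± 0.089, against -0.30 ± 0.092, -0.29 ± 0.094 and -0.27 ± 0.11 in the same fit without it. None of the members was called in either fit. P2ry12, Tmem119 and Csf1r came to 0.074, 0.039 and 0.019 in neocortex with the covariate. In hippocampus Cx3cr1, Ctss and P2ry13 had -0.25 ± 0.078, -0.20 ± 0.059 and -0.23 ± 0.089 with it and -0.31 ± 0.098, -0.28 ± 0.10 and -0.30 ± 0.11 without. The covariate itself went with genotype. All 7 RNAs had a log2 change above 0 in TDP-43KQ/KQ against TDP-43wt in each region, and 0 were called. Their median was 0.69 in neocortex (0.19 to 1.11 with each library left out in turn) and 0.37 in hippocampus (0.044 to 0.64). The fit therefore also takes out a part of the genotype difference, and the smaller changes with it cannot be assigned. What part the library-wide pattern has in the genotype differences was not tested beyond these values.

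**Figure D4:**
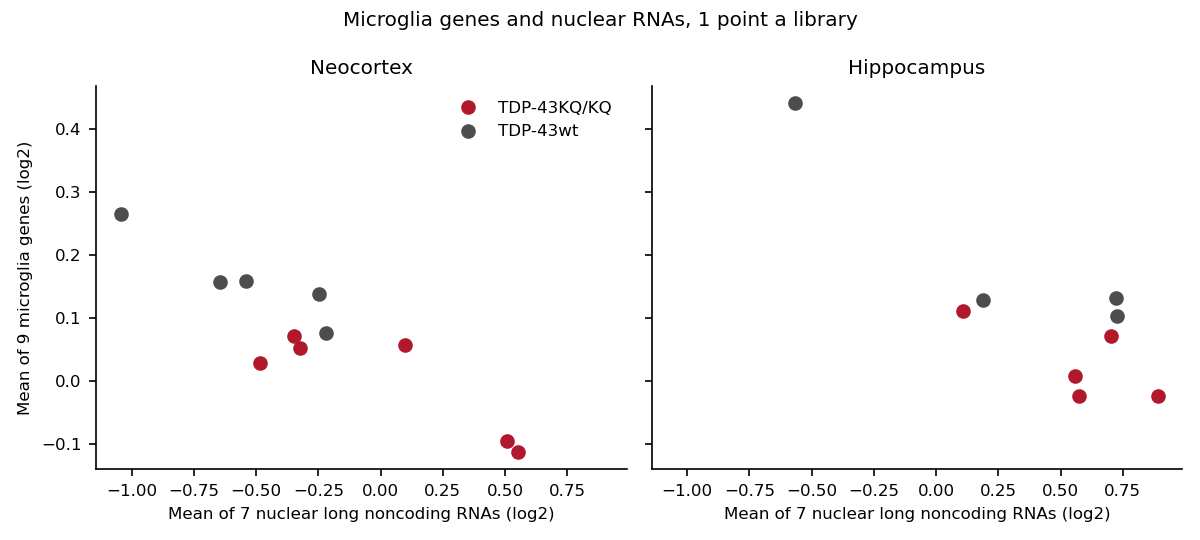
Mean of the 9 microglial genes (log2, y axis) against the mean of 7 nuclear long noncoding RNAs (log2, x axis), 1 point a library, for TDP-43KQ/KQ (red) and TDP-43wt (grey) in neocortex (left) and hippocampus (right). The points of neocortex descend to the right, with the nuclear mean from -0.48 to 0.55 in TDP-43KQ/KQ and from -1.04 to -0.22 in TDP-43wt, and in hippocampus TDP-43wt female 2 lies alone at the upper left.

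A difference between 2 genes of 1 library is not moved by a shift that both share equally. P2ry13 minus P2ry12, a pair chosen after the values were seen and so given with no test, was -0.11 to 0.070 in the 6 TDP-43KQ/KQ and 0.13 to 0.28 in the 5 TDP-43wt neocortex libraries, and -0.080 to 0.11 in the 5 TDP-43KQ/KQ and 0.17 to 0.33 in the 4 TDP-43wt hippocampus libraries. The genotypes did not overlap in either region, which also held for P2ry13 alone. How many other pairs of genes lack overlap was not counted, so this separation has no background to be set against. For TDP-43wt female 2, which stood apart in the single genes, the difference was 0.14 in neocortex and 0.17 in hippocampus, the lowest TDP-43wt value of that region.

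Set against the mean of the other 8 microglial genes of the same library, Cx3cr1 ranged from -0.079 to 0.054 in TDP-43KQ/KQ and from 0.11 to 0.26 in TDP-43wt neocortex, and Ctss from -0.030 to 0.021 in TDP-43KQ/KQ and from 0.039 to 0.21 in TDP-43wt. Tmem119 ranged from -0.091 to 0.081 in TDP-43KQ/KQ and from -0.21 to -0.094 in TDP-43wt, and Csf1r from -0.038 to 0.044 in TDP-43KQ/KQ and from -0.23 to -0.085 in TDP-43wt. On this scale 2 of 9 genes, Cx3cr1 and Ctss, had every mutant neocortex library below every control library. Of all genes, set against the mean of the 9, 0.191% did, where 4.29% did on the deposited scale. The mean of the 9 was itself lower in the mutant libraries, which moves other genes up on this scale. The shares of all genes given here are therefore no fair background for the members. For 2 of 9, Tmem119 and Csf1r, every mutant library was above every control library, against 22% of all genes. This is a place relative to the other members only, since the log2 changes of Tmem119 and Csf1r themselves were below 0 (above). In hippocampus all 9 genes overlapped, where 0.142% of all genes had every mutant library below and 19.2% above.

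**Figure D5:**
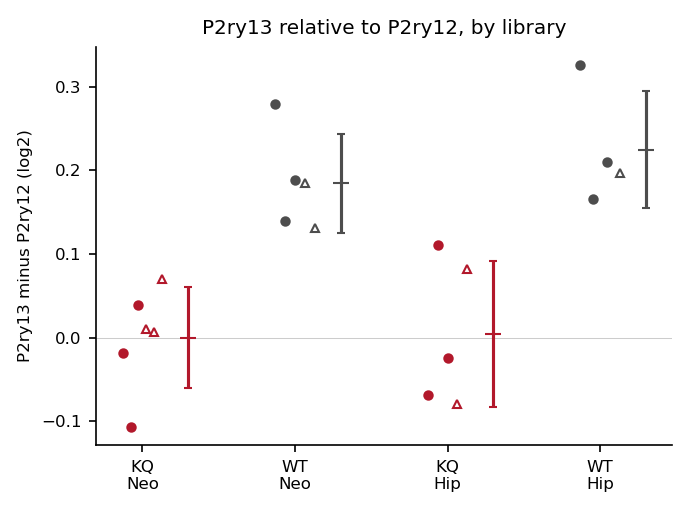
P2ry13 minus P2ry12 within each library (log2, y axis) for TDP-43KQ/KQ (KQ, red) and TDP-43wt (WT, grey) in neocortex (Neo) and hippocampus (Hip); circles are females, open triangles males, and bars the mean with its SD. KQ points run from -0.11 to 0.070 and WT points from 0.13 to 0.28 in neocortex, and KQ points from -0.080 to 0.11 and WT points from 0.17 to 0.33 in hippocampus.

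Other genes of microglia and of the pathways around the members were counted from lists, and 0 genes of these lists were called for genotype in either region. As 0.0382% of all genes were called in neocortex and 0% in hippocampus, this is no result about the lists. Of all genes, 51.5% and 51.7% had a change below 0, and 5.97% and 5.67% were lower at an unadjusted p under 0.05. Of 24 other microglia genes, 20 had a change below 0 in neocortex (median -0.12, or -0.076 without TDP-43KQ/KQ female 1; 9 at an unadjusted p under 0.05) and 20 in hippocampus (median -0.10, or -0.036 without TDP-43wt female 2; 5 at that level). C1qb, a subunit of complement C1q, had the lowest p in neocortex (log2 change -0.23 ± 0.059, limma adjusted p 0.215), and C1qc, another subunit, in hippocampus (-0.38 ± 0.11, adjusted p 0.287). Of 15 genes raised in disease-associated microglia, 14 were below 0 in neocortex (median -0.17, or -0.099 without TDP-43KQ/KQ female 1) and 9 in hippocampus (median -0.071, or -0.044 without TDP-43wt female 2), and the lowest p belonged to the chemokine Ccl6 in neocortex (-0.24 ± 0.065, adjusted p 0.230) and the integrin Itgax in hippocampus (-0.25 ± 0.078, adjusted p 0.305).

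Among 8 myeloid transcription factors, 5 were below 0 in neocortex and 3 in hippocampus, and Irf8, a factor that microglia need to form, had the lowest p in both (-0.23 ± 0.057 and -0.33 ± 0.086, limma adjusted p 0.217 and 0.280). Of 15 ligands and signalling partners, 10 were below 0 in neocortex and 7 in hippocampus. The lowest p belonged to Smad3, which carries TGF-beta signals to the nucleus, in neocortex (0.29 ± 0.064, adjusted p 0.181), and to Nrros, which presents latent TGF-beta on microglia, in hippocampus (0.37 ± 0.079, adjusted p 0.263). Of the partners of Hexim1 7 were tested, with 5 above 0 in neocortex and 3 in hippocampus. Larp7, which binds 7SK RNA, had -0.21 ± 0.061 in neocortex (adjusted p 0.250), and Ccnt1, the cyclin of P-TEFb, 0.20 ± 0.071 in hippocampus (adjusted p 0.344).

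No marker of another cell type was called for genotype in either region by the limma fit, where 0.0382% and 0% of all genes were called. The lack of calls is therefore no result about these cell types, and the values below are given as counts and medians. Of all genes, 51.5% had a change below 0 in neocortex and 51.7% in hippocampus. Their part in the microglial values was not tested. In neocortex 8 of 8 oligodendrocyte and 8 of 8 astrocyte markers had a change below 0 (medians -0.16, or -0.24 without TDP-43wt male 2, and -0.15, or -0.076 without TDP-43KQ/KQ female 1). In hippocampus 8 of 8 oligodendrocyte markers were below 0 (median -0.33). So were 6 of 8 astrocyte markers (median -0.19, or -0.12 without TDP-43wt female 2 and -0.091 without TDP-43KQ/KQ female 1). Above 0 there were 6 of 6 choroid plexus markers (median 1.72, or 0.25 without TDP-43KQ/KQ female 1 and 3.29 without TDP-43wt male 1). The same held for 8 of 9 markers of border-associated macrophages (median 0.23, or 0.14 without TDP-43wt female 2). The mean of the choroid plexus markers ranged from 0.35 to 3.87 in TDP-43KQ/KQ and from -0.059 to 2.18 in TDP-43wt hippocampus, and that of the border macrophage markers from -0.066 to 0.20 in TDP-43KQ/KQ and from -0.19 to 0.088 in TDP-43wt. Of 8 monocyte and granulocyte markers 1 was above 0 in neocortex and 6 in hippocampus, and of 5 lymphocyte markers 2 in each region. Neuron markers were below 0 in 5 of 8 in neocortex and 8 of 8 in hippocampus, oligodendrocyte precursor markers in 3 and 1 of 5, and endothelial and mural markers in 4 and 3 of 8.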

How the data were processed

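Per the labels, cutadapt served for trimming, STAR 2.5.2b for alignment against mm10 and Salmon for quantification, and counts were variance-stabilized by the authors with DESeq2 1.34.0 in R 4.1.0. The deposited log2-like values had sex and litter removed by the authors with limma, jointly over both regions, and each gene set to a mean of 0 over TDP-43KQ/KQ neocortex, so depth is unknown and precision comes from the spread between the 20 libraries. Groups, sex and litter were taken from the labels. Excluding genes at 0 in all libraries, or tied within a sex and litter, left 18329 genes in neocortex, 18310 in hippocampus and 17863 in both. Each region was fitted in limma 3.58.1 (R 4.3.3) with genotype, sex and litter (4 and 3 residual degrees of freedom), since the removal had used those degrees of freedom. Regions were compared in 1 fit of 4 groups with sex and litter (11). p was adjusted after Benjamini and Hochberg over all genes tested, with a threshold of 0.05. Correlations were tested with exact permutations within genotype. Scripts were tested on simulated data. All 10 members were named in each comparison, those with the extreme change in every library, and from other lists the gene with the lowest p. Members and lists were chosen with earlier results of these data known. Lists covered other microglia genes, myeloid transcription factors, ligands and signalling partners, P-TEFb and 7SK partners, disease-associated microglia, other immune and brain cell types, and region identity; 4 of 6 neocortex identity genes were lower and 2 higher in hippocampus than in neocortex in both genotypes (adjusted p under 0.05).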

Additional observations from a re-analysis of the deposited data

Results flagged for a closer look

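In groups of 4 to 10 libraries, the gap of the highest or lowest library to its nearest neighbour was compared with the range of the group (Dixon), for the 10 genes and the mean of the 9 microglial genes in 4 groups, 44 in all. Chance flags about 1 in 20 independent groups. The 9 genes moved together and their mean was checked too, so the count cannot be set against that rate. Here 5 were past the limit. Of these, 4 were TDP-43wt female 2 of hippocampus, with 0.68 for P2ry13 (nearest library 0.26), 0.31 for Csf1r (0.098), 0.23 for Selplg (0.071) and 0.44 for the mean of the 9 genes (0.13). The other was TDP-43KQ/KQ male 1 of hippocampus, with 0.18 for Tmem119 (nearest -0.063).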

How the results depend on the processing

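Counts of members called for genotype in neocortex were 0 as reported (0.0382% of all genes called) and 4 with genotype as the only term (15%). They were 3 with sex without litter (10.6%), 3 with litter as a random effect (13.2%) and 5 with the replicate block of sex and number (10.1%). Under that block Tmem119 had 0.0075. The numbers did not pair the genotypes, because the deviations of same-numbered libraries correlated between -0.60 and 0.11; deviations of same-numbered females of hippocampus and neocortex correlated between -1 and 0.71. In hippocampus the replicate block called 0 members (0% of all genes). Every other fit also called 0 members, with at most 2.04% of all genes (genotype as the only term). Hexim1 had -0.0012 there with litter as a random effect. With the nuclear RNA covariate P2ry12 came to 0.074, Tmem119 to 0.039 and Csf1r to 0.019 in neocortex, and P2ry12 to 0.014 in hippocampus. Between regions, TDP-43KQ/KQ had 1 member called as reported (35.4% of all genes) and 2 with group as the only term (47.3%). It had 0 in the differences of same-numbered females (25.6%), which the labels do not state to be the same mice. TDP-43wt had 1 as reported (28.2%), 0 in those differences (26.1%) and 0 with each library centred on its median (28.2%). Selplg in TDP-43wt turned from 0.0030 to -4.65e-05 with a random effect for each pair of same-numbered females (replicate block). It was -0.011 in the differences of same-numbered females and -0.0022 with median centring. Pairs past the test were 27 in each region on the residuals of the region fit and 0 in females only, and the hippocampal median r was 0.25 without the 2 farthest libraries. The cause of these shifts was not tested.

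With each library left out in turn, 0 members were called for genotype in either region (at most 0.0491% of all genes in neocortex and 0.699% in hippocampus). Between regions, 1 to 2 were called in TDP-43KQ/KQ (27.9% to 36.6% of all genes) and 0 to 1 in TDP-43wt (20.5% to 32.9%). Pairs past the test were 0 to 10 in neocortex and 0 to 4 in hippocampus, and the hippocampal median r was 0.33 to 0.80. Log2 changes that crossed 0 ranged, for genotype in neocortex, from -0.053 to 0.015 (Hexim1), and in hippocampus from -0.25 to 0.016 (P2ry12), -0.17 to 0.020 (Siglech), -0.21 to 0.10 (Olfml3), -0.22 to 0.11 (Tmem119) and -0.011 to 0.11 (Hexim1). Between regions in TDP-43KQ/KQ they ranged from -0.00067 to 0.093 (P2ry13), -0.0080 to 0.088 (Cx3cr1), -0.010 to 0.052 (Siglech), -0.035 to 0.017 (Csf1r), -0.092 to 0.0024 (Tmem119) and -0.0038 to 0.069 (P2ry12). In TDP-43wt they ranged from -0.12 to 0.11 (P2ry12), -0.074 to 0.12 (Ctss), -0.044 to 0.027 (Selplg), -0.13 to 0.039 (Siglech), -0.058 to 0.14 (P2ry13) and -0.049 to 0.11 (Cx3cr1). Depth is unknown, so precision rests on at most 4 to 6 libraries a group. In the neocortex fit with sex and litter, TDP-43KQ/KQ female 2 and TDP-43wt male 1 did not enter the genotype estimate. In the hippocampus fit, TDP-43wt female 3 and TDP-43KQ/KQ females 2 and 3 did not. Leaving these libraries out could not change the genotype result, so those runs are no check of it.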
